A study of Mus musculus with 6 samples.

Results

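The 10 sinusoidal endothelial scavenger genes Stab1, Stab2, Lyve1, Mrc1, Gpr182, Dnase1l3, Plvap, Oit3, Fcgr2b and Clec4g were followed in 2 fractions of mouse bone marrow stroma, and all 10 were among the 19938 genes measured. They are a list of known genes of sinusoidal endothelium; no value enters the rule, but the list was drawn up with earlier results of these data known. For each gene the probe set with exactly 1 gene symbol and the highest mean over the 6 arrays was read. The first fraction was CD73+CD105+ (n = 3) and the second CD73+CD105- (n = 3), both sorted from dissociated primary bone marrow as cells without the leukocyte marker CD45 and the erythroid marker Ter119. CD73 is a surface enzyme that makes adenosine, and CD105 is endoglin, an endothelial surface protein that helps receptors bind TGF-beta family ligands. The labels give no strain, age, sex, genotype or treatment of the mice and do not say whether the 3 biological replicates of a group were separate animals. The p-values therefore measure the spread between these samples, which may be technical. The levels are log2 expression values per probe set after RMA, a background correction and quantile normalization that pulls differences of dim genes towards 0, and each difference is the CD73+CD105+ mean minus the CD73+CD105- mean.

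Sinusoids are the wide, thin-walled vessels of marrow, liver and spleen. Their endothelium takes up waste from blood by receptor-mediated endocytosis: hyaluronan, modified proteins, mannose-ended glycoproteins, immune complexes and chemokines bind receptors on the surface and are delivered to lysosomes. In marrow the same vessels are the route by which blood cells enter the circulation, and most of the 10 genes are best described in liver sinusoidal endothelium.

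Some facts of the arrays touch every result. Array medians lay between 6.27 and 6.35, and the median standard error of a difference over all genes was 0.0928. Probe set by probe set, both replicate 1 arrays together averaged almost the same as the other 4 arrays together (SD of the gap 0.0627, against at least 0.202 for the 8 other pairs across the groups), a balance the labels do not mention. How this balance bears on p-values from the fit without a batch term, which the counts below use unless stated otherwise, was not tested. Values are therefore also given within replicate 1, within replicates 2 and 3, and with a batch term for replicate 1. Eng, which encodes CD105, averaged 8.06 ± 0.25 in CD73+CD105+ and 6.30 ± 0.21 in CD73+CD105- samples (SD, n = 3 each), the order that the sort sets. Ptprc, which encodes CD45, stood at 4.70 ± 0.06 and 4.71 ± 0.05 in the same order (SD, n = 3 each).

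Plvap was the 1 gene of the 10 that passed the test, and it rose 2.37-fold in CD73+CD105+ samples. The hyaluronan receptor gene Lyve1 stood above nearly all olfactory receptor genes in both fractions, with means of 7.26 ± 0.15 for CD73+CD105+ samples and 6.81 ± 0.05 for CD73+CD105- samples (SD, n = 3 each), and its difference of 0.44 did not pass. Mrc1, Gpr182, Dnase1l3, Fcgr2b and Clec4g lay in both fractions below the 95th percentile of olfactory receptor genes, which serve here as a measure of background, since stroma has no known use for them. Of the 10 genes 1 was higher, 0 were lower and 9 did not pass, at a Benjamini-Hochberg adjusted p under 0.05 in limma over all genes. Over all genes 1.35% were called higher and 0.466% lower. With the batch term for replicate 1 0 of the 10 passed in limma (4 at an unadjusted p under 0.05), and 0.476% of all genes passed and were higher. The share of all genes at an unadjusted p under 0.05 with the batch term was not taken, so the 4 have no background. At an unadjusted p under 0.05, 5 of the 10 were higher and 0 lower, and 8.58% of all genes were higher. Unadjusted counts given below for other lists cover both directions, for which no share of all genes was taken. The median difference was 0.17 over the 10 genes and -0.02 over all genes. In bulk samples like these, fewer cells of a type and less RNA per cell cannot be told apart.

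**Figure D1:**
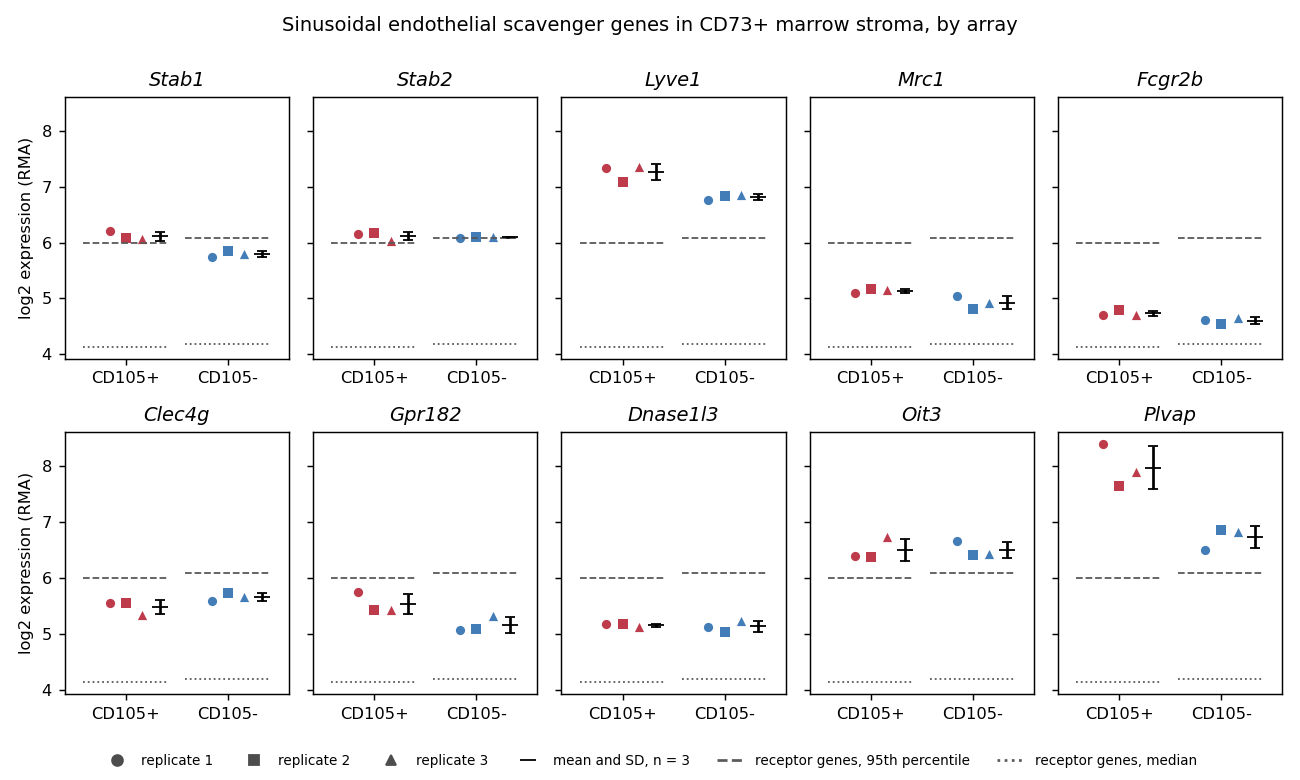
RMA log2 expression of the 10 genes (1 panel each) in CD73+CD105+ arrays (left, red) and CD73+CD105- arrays (right, blue). Points are arrays, with the mean and SD (n = 3) beside them in black, and the lines give the 95th percentile (dashed) and median (dotted) of olfactory receptor gene means in the same group. The Plvap points of CD73+CD105+ lie between 7.64 and 8.40, above all CD73+CD105- points (6.50 to 6.86).

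The scale of the levels was set with 1015 olfactory receptor genes. Their group means had a median of 4.14 for CD73+CD105+ samples and 4.19 for CD73+CD105- samples, and 95th percentiles of 6.001 and 6.086 in the same order. Of all genes 63.8% lay above this percentile in CD73+CD105+ samples and 62.3% in CD73+CD105- samples. Of the 10 scavenger genes 5 did in CD73+CD105+ samples (Plvap, Lyve1, Oit3, Stab1 and Stab2), and 4 in CD73+CD105- samples (the same genes without Stab1). Above the 99th percentile of receptor genes stood 2 in CD73+CD105+ samples, Plvap and Lyve1, and 0 in CD73+CD105- samples. Probe sets bind with unequal strength, so these positions describe distance from background, and the genes are not ranked by level against each other. The receptor genes differed little between the fractions, with a median difference of -0.03 and 0.296% of them past the threshold.

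**Figure D2:**
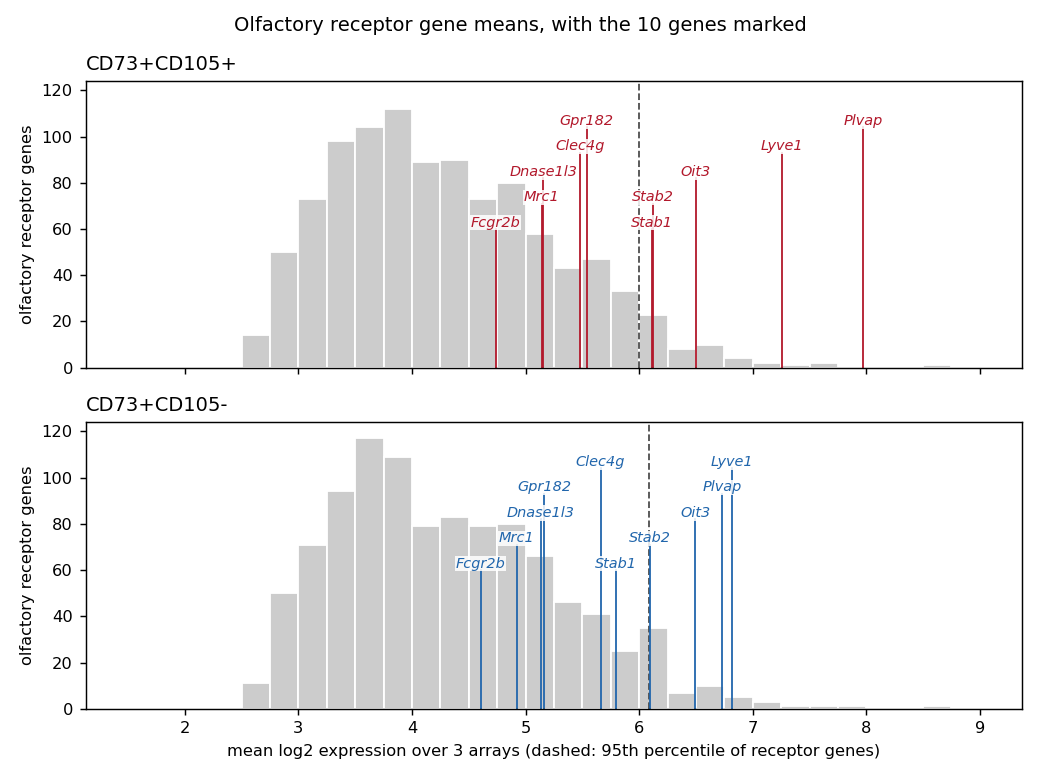
Histogram of the mean log2 expression (x axis, over 3 arrays) of 1015 olfactory receptor genes (y axis, genes per bin) in CD73+CD105+ (upper) and CD73+CD105- samples (lower), with vertical lines at the means of the 10 scavenger genes. The dashed line is the 95th percentile of the receptor genes, 6.001 in the upper and 6.086 in the lower panel. Plvap lies above it by 1.97 in the upper and 0.64 in the lower panel, within the receptor gene range in both. Fcgr2b, Mrc1, Dnase1l3, Gpr182 and Clec4g lie below the line in both.

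Among the receptors for uptake, the stabilins Stab1 and Stab2 are a pair of large related membrane proteins. Stab2 is the main clearance receptor for hyaluronan in sinusoids, and Stab1, also found on some macrophages, takes up the matrix protein SPARC and modified lipoproteins. The sequences upstream of both genes are shown because the pair are paralogues, with differences between the fractions of 0.32 for Stab1 and 0.02 for Stab2 that were not tested against each other. They are from RefSeq on GRCm38.p6, which holds a promoter window for 5 of the 10 genes, at chr14:31168652-31168891 for Stab1 and chr10:87008039-87008192 for Stab2. Both are on the minus strand, printed 5′ to 3′ up to the base before the annotated gene. Capitals mark the ETS core CAGGAA and the MAF core TGCTGA, searched on both strands.
Stab1: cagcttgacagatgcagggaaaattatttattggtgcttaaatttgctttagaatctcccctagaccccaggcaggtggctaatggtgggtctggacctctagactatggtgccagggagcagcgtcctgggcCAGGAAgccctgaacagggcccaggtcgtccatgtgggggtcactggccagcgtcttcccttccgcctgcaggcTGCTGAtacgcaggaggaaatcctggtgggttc
Stab2: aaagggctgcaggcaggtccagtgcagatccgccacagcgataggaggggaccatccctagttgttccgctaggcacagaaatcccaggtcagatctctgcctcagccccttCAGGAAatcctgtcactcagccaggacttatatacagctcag

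In windows of 300 bases, which run on past the printed stretch, Stab1 held 2 ETS matches and 1 MAF match, and Stab2 held 1 ETS match and 0 MAF matches. Another motif, the GATA letters TGATAA, was in neither window. The ETS letters stood in 30.6%, the MAF letters in 19.5% and the GATA letters in 9.05% of all 32851 windows of that length. A match is a stretch of letters only. The printed stretches thus share an ETS match and differ by the MAF match.

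Stab1 read 6.21, 6.08 and 6.06 in CD73+CD105+ replicates 1, 2 and 3, against 5.74, 5.85 and 5.80 in CD73+CD105- replicates 1, 2 and 3. All 3 CD73+CD105+ arrays lay above all 3 CD73+CD105- arrays, and the means lie on either side of the 95th percentile of receptor genes. The CD73+CD105+ mean exceeded that percentile by only 0.12, with 36 receptor genes as high. Both means lay above the 90th percentile, so the crossing depends on the percentile chosen. The difference of 0.32 (SE 0.07, 95% interval 0.15 to 0.49) did not pass over all genes (limma adjusted p = 0.0832). It was 0.47 in replicate 1 and 0.25 in replicates 2 and 3, and its adjusted p with the batch term was 0.232.

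Stab2 read 6.16, 6.17 and 6.03 in CD73+CD105+ samples, against 6.08, 6.10 and 6.10 in CD73+CD105- samples. The groups overlapped, and the CD73+CD105- mean exceeded the 95th percentile of receptor genes by 0.00859. The difference was 0.02 (95% interval -0.14 to 0.19, limma adjusted p = 0.892). Among the 1015 receptor genes 36 were as high as Stab2 in CD73+CD105+ samples and 50 in CD73+CD105- samples, so its signal was close to the edge of what unused genes gave. Without CD73+CD105- replicate 2 or replicate 3 the count of the 10 genes above that percentile in CD73+CD105- samples was 3 in place of 4.

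Lyve1 binds hyaluronan on lymphatic and sinusoidal endothelium and is also found on some tissue macrophages. It read 7.34, 7.09 and 7.35 in CD73+CD105+ samples, against 6.76, 6.83 and 6.85 in CD73+CD105- samples. The groups did not overlap, and the gap between the lowest CD73+CD105+ and the highest CD73+CD105- array was 0.23. Of the 1015 receptor genes 4 were as high in CD73+CD105+ samples and 11 in CD73+CD105- samples, and the CD73+CD105- mean lay between the 95th and the 99th percentile of receptor genes. The difference of 0.44 is 1.36-fold (SE 0.09, 95% interval 0.23 to 0.65) and missed the threshold (limma adjusted p = 0.0628). Without CD73+CD105+ replicate 2 it was 0.53 and passed (adjusted p = 0.0371); with the batch term the adjusted p was 0.175. The difference was 0.58 in replicate 1 and 0.37 in replicates 2 and 3.

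Mrc1, the mannose receptor, takes up glycoproteins that end in mannose and collagen fragments. It read 5.10, 5.17 and 5.15 in CD73+CD105+ samples, against 5.04, 4.81 and 4.93 in CD73+CD105- samples. The groups did not overlap, by a gap of 0.06, but both means lay below the receptor gene percentile, with 202 and 266 receptor genes as high, in the same order. The difference of 0.22 (95% interval 0.03 to 0.40) did not pass (limma adjusted p = 0.223), and it was 0.06 in replicate 1 and 0.29 in replicates 2 and 3.

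Fcgr2b, the inhibitory receptor for IgG that in liver sinusoids clears small immune complexes, stood inside the receptor gene range, at their 69.1 percentile for CD73+CD105+ samples and the 63.3 percentile for CD73+CD105- samples. It read 4.70, 4.79 and 4.71 in CD73+CD105+ samples, against 4.62, 4.54 and 4.65 in CD73+CD105- samples. The groups did not overlap, by a gap of 0.05, and the difference of 0.13 (95% interval -0.03 to 0.29) did not pass (limma adjusted p = 0.378). Fcgr2b and Fcgr3 have closely similar extracellular parts, so a probe set for either may bind transcripts of both.

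Clec4g encodes LSECtin, a lectin of liver and lymph node sinusoids. It read 5.55, 5.55 and 5.34 in CD73+CD105+ samples, against 5.59, 5.73 and 5.65 in CD73+CD105- samples. It is the 1 gene of the 10 whose 3 CD73+CD105+ arrays all lay below the 3 CD73+CD105- arrays, in both fractions below the receptor gene percentile. The difference of -0.18 (95% interval -0.38 to 0.02) did not pass (limma adjusted p = 0.340). Clec4g is also the 1 gene here with 2 probe sets of its own; the dimmer one differed by 0.05, in the opposite direction (limma adjusted p = 0.795 over all probe sets).

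Gpr182 is an atypical receptor of sinusoidal and lymphatic endothelium that removes chemokines, CXCL12 among them. It read 5.75, 5.43 and 5.43 in CD73+CD105+ samples, against 5.07, 5.10 and 5.32 in CD73+CD105- samples. The groups did not overlap, by a gap of 0.11, and both means stood below the receptor gene percentile, by 0.46 in CD73+CD105+ and 0.92 in CD73+CD105- samples. The difference of 0.37 (SE 0.12, 95% interval 0.10 to 0.65) did not pass (limma adjusted p = 0.162), and it was 0.68 in replicate 1 and 0.22 in replicates 2 and 3.

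Dnase1l3 is a secreted DNase that degrades DNA in chromatin and in particles released by dying cells, made by dendritic cells, macrophages and liver sinusoidal endothelium. It read 5.17, 5.17 and 5.12 in CD73+CD105+ samples, against 5.13, 5.04 and 5.23 in CD73+CD105- samples. The groups overlapped, and the difference was 0.02 (95% interval -0.15 to 0.19, limma adjusted p = 0.908). On the fold scale that interval runs from 0.902 to 1.14. Both means lay below the receptor gene percentile, with 196 receptor genes as high in CD73+CD105+ and 206 in CD73+CD105- samples. The interval is thus for a signal that cannot be told from background.

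Oit3, a secreted protein with a zona pellucida domain that marks liver sinusoidal endothelium and is also made by hepatocytes, read 6.39, 6.37 and 6.73 in CD73+CD105+ samples, against 6.66, 6.40 and 6.42 in CD73+CD105- samples. The groups overlapped around the same mean of 6.50 and 6.49. The difference was 0.00199 (95% interval -0.28 to 0.29, limma adjusted p = 0.995). It was -0.26 in replicate 1 and 0.14 in replicates 2 and 3. Its level stood above the receptor gene percentile in both fractions, with 20 receptor genes as high in CD73+CD105+ samples and 23 in CD73+CD105- samples.

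Plvap encodes the protein that forms the diaphragms across caveolae and the windows of fenestrated and sinusoidal endothelium. It read 8.40, 7.64 and 7.89 in CD73+CD105+ samples, against 6.50, 6.86 and 6.83 in CD73+CD105- samples. Replicate 1 held both the highest CD73+CD105+ array and the lowest CD73+CD105- array, and the gap between the groups was 0.78. The means were 7.97 ± 0.39 in CD73+CD105+ and 6.73 ± 0.20 in CD73+CD105- samples (SD, n = 3 each). The difference of 1.25 (SE 0.20, 95% interval 0.78 to 1.71) passed (limma adjusted p = 0.0306) and ranked at the 99.6 percentile of the differences of all genes. Only 1 receptor gene was as high as Plvap in CD73+CD105+ samples, against 12 in CD73+CD105- samples.

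The Plvap difference was 1.89 in replicate 1 and 0.92 in replicates 2 and 3 (limma adjusted p = 0.141 for the 4 arrays). With the batch term for replicate 1 it stayed at 1.25 with an adjusted p of 0.0746. The call was also lost without CD73+CD105+ replicate 3 (adjusted p = 0.0835) and without CD73+CD105- replicate 1 (0.104), replicate 2 (0.0783) or replicate 3 (0.0613). It was kept without CD73+CD105+ replicate 1 (0.045) or replicate 2 (0.0235). The difference lay between 0.92 and 1.89 in all of these settings.

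**Figure D3:**
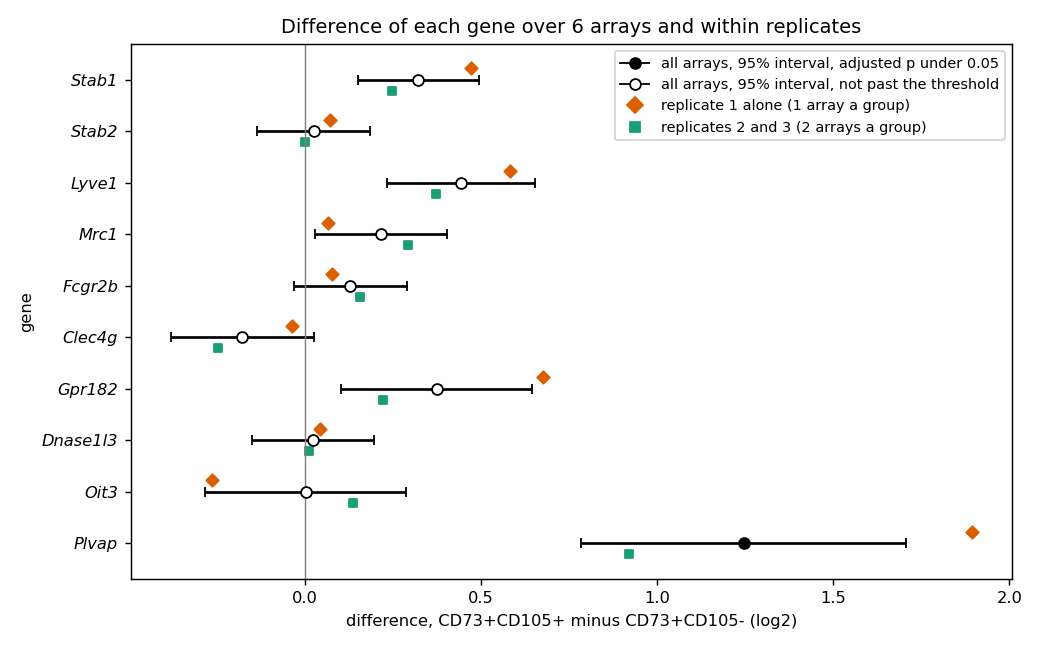
Difference in log2 expression, CD73+CD105+ minus CD73+CD105- (x axis), for each of the 10 genes (y axis), with the 95% interval from limma over 6 arrays; a filled point passed an adjusted p of 0.05. Diamonds are replicate 1 alone and squares replicates 2 and 3; Plvap is the 1 filled point, at 1.25, and its 2 within-replicate values are 1.89 and 0.92.

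Arrays of the groups did not overlap for 7 of the 10 genes, 6 higher and 1 lower in CD73+CD105+ samples, where 10.7% of all genes were separated upward and 12.9% downward. The difference was above 0 for 9 of the 10, against 44.4% of all genes. Both replicate 1 alone and replicates 2 and 3 gave a difference above 0 for 8, against 24% of all genes. Given how the genes were listed, these counts are a description.

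Genes that moved most like Plvap over the 6 arrays were Abcb1a, Kitl, Ly6e, Csf2rb and Klhl4, by the Euclidean distance between deviations from each gene's mean (0.277 to 0.356, against a median of 1.70 over all genes). Abcb1a is a drug efflux pump and Kitl is stem cell factor. Their differences were 1.23 for Abcb1a, 1.27 for Kitl, 1.15 for Ly6e, 1.45 for Csf2rb and 1.49 for Klhl4.

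Other genes described for liver or marrow sinusoidal endothelium held 5 higher, 0 lower and 14 not past the threshold of 19 measured. The surface sialomucin gene Emcn rose by 4.61, the adhesion receptor gene Adgrl4 by 4.07, the VEGF receptor gene Kdr by 1.31 and the water channel gene Aqp1 by 1.03 (limma adjusted p at most 0.0388). With the batch term 2 of the 19 were called. The list median was 0.05. Of the 19, 13 stood above the receptor gene percentile in at least 1 fraction and 6 in neither. Among the 6 was Flt4, a VEGF receptor that marks marrow sinusoids, with 5.91 in CD73+CD105+ samples and 5.79 in CD73+CD105- samples (difference 0.12, limma adjusted p = 0.575, named after its values were seen).

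Scavenger and atypical chemokine receptors of other classes held 2 higher, 0 lower and 21 not past the threshold of 23. Cd36, which takes up fatty acids and modified lipoproteins, rose by 4.73 and Ackr1, the chemokine-binding Duffy receptor of venules, by 1.24 (limma adjusted p = 0.044). The Ackr1 call was lost with the batch term (adjusted p = 0.106). The list median was 0.06. Among 19 C-type lectin receptors other than Mrc1 and Clec4g, Cd93 rose by 3.51 and Clec14a by 1.63, both endothelial, and 17 did not pass, with a list median of -0.03. In both fractions 13 of these 19 were under the receptor gene percentile.

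Caveolae, whose necks carry Plvap diaphragms, had 2 of 12 genes higher and 0 lower. Cavin2, a coat protein, averaged 8.04 ± 0.26 in CD73+CD105+ samples and 5.90 ± 0.40 in CD73+CD105- samples (SD, n = 3 each) and rose by 2.14, and the structural protein gene Cav1 rose by 0.64 (limma adjusted p = 0.0394; 0.113 with the batch term). The list median was 0.35. Of 25 genes of clathrin-mediated uptake and lysosomes 0 passed in limma (1 at an unadjusted p under 0.05), with the lysosomal protease gene Ctsl at 0.28 and the adaptor subunit gene Ap2s1 at 0.27, and all 25 stood above the receptor gene percentile.

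The ligand side was measured too. Of 12 hyaluronan turnover genes 0 passed in limma (3 at an unadjusted p under 0.05), with the hyaluronan-binding proteoglycan gene Vcan at 0.49 and the synthase gene Has2 at -0.32. Of 10 described protein ligands of the scavenger genes 1 rose, the chemokine gene Cxcl12, by 1.31 (limma adjusted p = 0.044; 0.10 with the batch term), and Postn was at 0.47. The DNase genes other than Dnase1l3 held 0 of 7 past the threshold in limma (0 at an unadjusted p under 0.05), with Dnase1 at -0.19 and Dnase2a at -0.10. The Fc receptor genes other than Fcgr2b also held 0 of 7 (2 at an unadjusted p under 0.05), with Fcgr3 at -0.51 and Fcer2a at -0.45. Of these 7 genes 5 differed below 0 and 2 above, Fcer1g (0.20) and Fcgr4 (0.11), the sign of Fcgr2b; both were named after their values were seen. In both fractions 6 of the 7 were under the receptor gene percentile, Fcer1g and Fcgr4 among them.

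**Figure D4:**
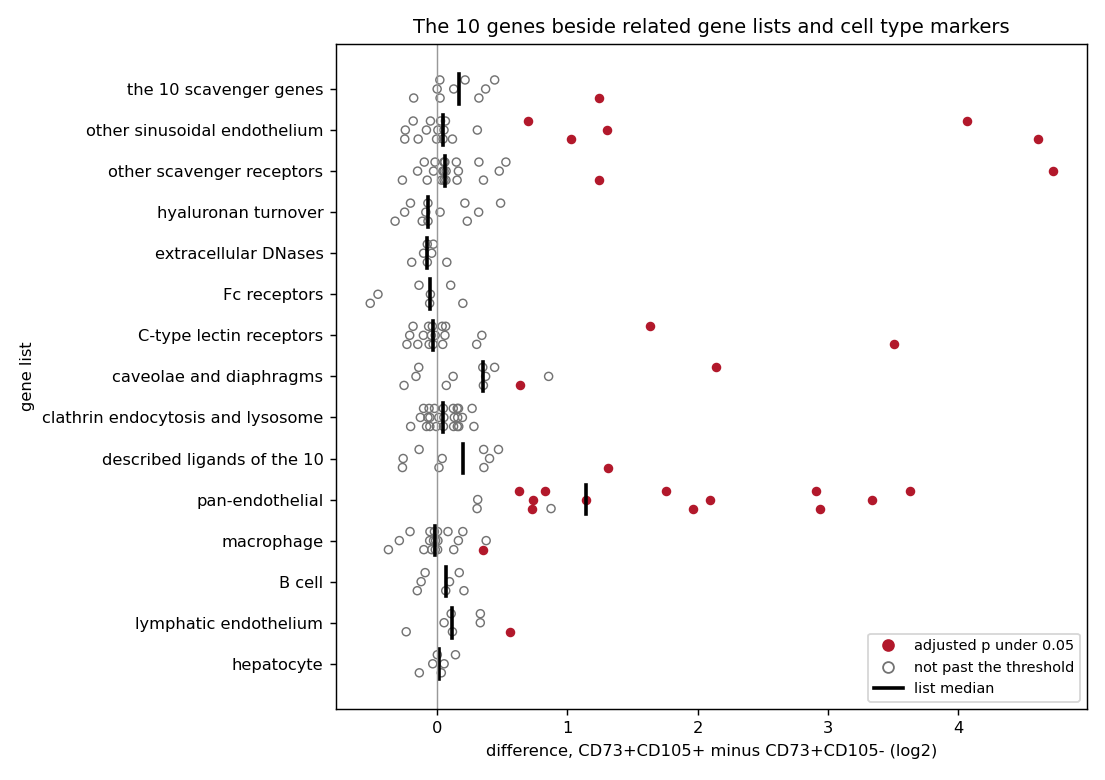
Difference in log2 expression, CD73+CD105+ minus CD73+CD105- (x axis), for each measured gene of 15 lists (y axis). Filled points passed an adjusted p of 0.05 and black bars are list medians. The 10 scavenger genes have 1 filled point and a median of 0.17, while the pan-endothelial list has 12 filled points and a median of 1.14. Eng, which encodes the sort marker CD105, is 1 of those 12.

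Markers of cells that also use these genes were read beside them. Pan-endothelial genes held 12 higher and 0 lower of 15, or 9 higher with the batch term. Eng, whose order the sort sets, is in this list and in both counts, as well as in the median and sum below. Pecam1 rose by 3.63, Cdh5 by 3.34, Ptprb by 2.94 and Tek by 2.91, and the list median was 1.14. The summed level of the list on the linear scale was 4292 to 5205 over CD73+CD105+ arrays and 1513 to 1701 over CD73+CD105- arrays. The part of this rise in the Plvap difference was not tested.

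Macrophages use Stab1, Mrc1, Lyve1 and Fcgr2b. In both fractions 13 of 20 macrophage markers were under the receptor gene percentile. Among them were the defining markers Adgre1 (3.89 in CD73+CD105+ and 3.99 in CD73+CD105- samples) and Csf1r (5.33 in both). The other 7 stood above it in at least 1 fraction, among them Mertk (8.48 and 8.85), Cd68 (7.05 and 6.89) and Cx3cr1 (7.01 and 7.06), in the same order. These genes, other than Mertk, were named after their values were seen. One marker was higher, Aif1 by 0.35 (limma adjusted p = 0.0401, below the receptor gene percentile in both fractions; 0.16 with the batch term), and 0 were lower, with Lyz2 at 0.38 and Mertk at -0.37. The summed level was 1300 to 1425 over CD73+CD105+ arrays and 1417 to 1473 over CD73+CD105- arrays. Mertk, the brightest of the 20, weighs most in this sum, so the sum is not a measure of macrophage content. B cells, which use Fcgr2b, had 0 of 7 markers past the threshold in limma (1 at an unadjusted p under 0.05), with Cd79a at 0.21 and Cd22 at 0.17. In both fractions 4 of the 7 were under the receptor gene percentile, Cd79a and Cd22 among them.

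Of 7 lymphatic endothelial markers, a cell type that uses Lyve1 and Gpr182, 1 rose: Reln, by 0.56 (limma adjusted p = 0.0316; 0.0879 with the batch term), while Pdpn, which stroma also makes, was at 0.33. Of the 7, 4 stood above the receptor gene percentile in at least 1 fraction and 3 in neither. Among the 3 was Prox1, the defining transcription factor, with 5.76 in CD73+CD105+ samples and 5.65 in CD73+CD105- samples (named after its values were seen). The summed level of the list was 2839 to 3108 over CD73+CD105+ arrays and 2616 to 3140 over CD73+CD105- arrays. Most of this sum came from Pdpn (10.35 in CD73+CD105+ and 10.02 in CD73+CD105- samples) and Sema3d (10.19 and 10.43, same order). It therefore says little about lymphatic cells. Hepatocyte markers, read because hepatocytes make Oit3, held 0 of 6 past the threshold in limma (0 at an unadjusted p under 0.05), with Ttr at 0.14 and Fgb at -0.13; in both fractions 5 of the 6 were under the receptor gene percentile.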

How the data were processed

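Each of the 6 samples of sorted mouse marrow cells gave total RNA that was labelled with biotin and read on its own 1-colour array, per the labels. The deposited log2 values per probe set were made by the authors with RMA, per the submitters' processing notes; no source used here gives its version or the genome build. The platform annotation pairs 21789 of the 35556 probe sets with 1 gene symbol, 1621 with several and 12146 with none; taking the highest mean over 6 arrays per symbol gave 19938 genes. Scanner files and detection calls were not used here.

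Differences were tested with limma 3.58.1 in R 4.3.3 (lmFit and eBayes, two-sided, no block), with Benjamini-Hochberg adjustment over all 19938 genes, a threshold of 0.05 and no filter on dim genes; intervals are moderated 95% intervals. The fit was tested on simulated data with noise drawn independently for each array. Those data lacked the replicate 1 balance, so the simulation says nothing about p-values under that balance. The number of arrays limits the precision. Groups and replicate numbers came from the titles. Deviations of same-numbered arrays from their group means correlated at -0.883, 0.00659 and 0.104 for replicates 1, 2 and 3. The replicate 1 value follows from the balance described above and does not bear on pairing. The same balance also binds the values of replicates 2 and 3, so they cannot decide on pairing either. The labels do not pair samples by number, so the numbers were not taken as pairs.

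The 10 genes and 14 other lists were chosen with earlier results of these data known. Named were all 10 genes, the 5 genes nearest to a gene past the threshold, and, per list, at most 4 members past it by size, or the 2 with the largest difference where fewer than 2 passed. List symbols without a probe set of 1 symbol were left out. Alternatives covered replicate structure, arrays, normalization, dim genes, probe sets, weights and ranks.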

Additional observations from a re-analysis of the deposited data

How the results depend on the processing

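Of the 10 genes, the number past the threshold and higher in CD73+CD105+ samples was 1, and it was 0 with the replicate block, with the batch term for replicate 1, in replicates 2 and 3 alone and on ranks within each array, and 4 with array weights; leaving out 1 array gave 0 to 2. The 4 were Plvap, Stab1, Lyve1 and Gpr182, in a fit whose array weights were highest for the replicate 1 arrays (2.44 in CD73+CD105+ and 1.61 in CD73+CD105-). The number lower was 0 in every alternative run. With the replicate number as a block, the adjusted p of Plvap was 0.0578, although the labels do not pair samples by number. Renewed quantile normalization, median centring, both filters on dim genes, both other rules for probe sets and an intensity trend each left the count at 1. Over all genes 270 were higher and 93 lower. The replicate block left 190 higher and 25 lower, the batch term 95 and 6, replicates 2 and 3 alone 28 and 1, and array weights gave 807 and 524. Ranks gave 165 higher, and leaving out 1 array gave 80 to 240 higher and 6 to 53 lower. The cause of these shifts was not tested. Settings that left out arrays or added terms also had fewer arrays or residual degrees of freedom, and the part of this was not tested either.

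Differences near 0 changed sign. Oit3 was at -0.0846 with array weights and -0.206 percentile points on ranks, and between -0.113 and 0.0838 when 1 array was left out. Leaving out 1 array gave Stab2 -0.00173 to 0.0686 and Dnase1l3 -0.0229 to 0.0696. None of these was past the threshold. Of the 10 genes, those above the receptor gene level numbered 2 in CD73+CD105+ and 0 in CD73+CD105- samples at the 99th percentile; at the 90th, and in the other alternatives run, there were 5 in CD73+CD105+ and 3 to 5 in CD73+CD105- samples. With no detection calls, genes below that level cannot be told from background.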
